A study of Mus musculus with 19 samples.

Results

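The cytosolic heat shock chaperones described here are 10 genes of the protein folding machinery, measured by RNA sequencing in the locus coeruleus of mice. They are the rows Hspa1a, Hspa1b, Hspa8, Dnajb1, Hsph1, Hsp90aa1, Chordc1, Hspb1, Cryab and Bag3 of the count table, taken by symbol. That table holds 14443 genes. The list was drawn up with earlier results of these data known. Shares of members set beside those of all genes are therefore descriptions. All 10 had exactly 1 row, and all 10 passed the filter on low counts, as did every gene of the table. The locus coeruleus is a small nucleus of the brainstem whose neurons release noradrenaline and are most active in waking.

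The 19 libraries formed 4 groups. CnB1KO_SD6 (n = 5) came from mice with knockout of CnB1, the regulatory subunit of calcineurin encoded by Ppp3r1, that were deprived of sleep for 6 h, and CnB1KO_S6 (n = 5) from knockout mice that slept normally. WT_SD6 (n = 5) and WT_S6 (n = 4) were the control mice after the same deprivation and after normal sleep. The labels call the genotypes ABC-CnB1KO and ABC-Ctrl and give 1 dissection protocol for all mice, 4 weeks after injection of an adeno-associated virus that drives Cre from the synapsin promoter, which is active in neurons. The dissected tissue also holds glia and vessels, which that promoter does not target. No source used here gives the age, sex, litter, batch or sleep recordings of the mice. In such bulk libraries, more cells of a type and more RNA per cell cannot be told apart.

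Ppp3r1 averaged 133 ± 6.73 CPM (counts scaled to the library total) in CnB1KO_SD6 and 129 ± 13.2 CPM in CnB1KO_S6, against 152 ± 10.9 CPM in WT_SD6 and 161 ± 4.08 CPM in WT_S6 (SD). Averaged over both sleep states, it was 1.20-fold lower in CnB1KO (adjusted p = 0.00758, edgeR). The noradrenergic markers were present in every library. Th, the rate-limiting enzyme of catecholamine synthesis, had 58.8 to 153 CPM, Dbh, which makes noradrenaline, had 111 to 285 CPM, and Slc6a2, the noradrenaline transporter, had 189 to 550 CPM. None of these 3 passed in any comparison by counts. After deprivation, 0 of 8 markers of neurons and 0 of 8 of endothelium passed in either genotype, 1 of 8 of astrocytes rose in both, and 1 of 8 of microglia fell in WT. Library totals were 5110285 to 6966490 counts in CnB1KO_SD6, 3887298 to 7128244 in CnB1KO_S6, 5606129 to 7903253 in WT_SD6 and 6260061 to 7002015 in WT_S6. Libraries carry the numbers 1 to 20 of the count table's header (no library 5). Library 13 of CnB1KO_S6 was the shallowest.

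Cytosolic chaperones bind exposed hydrophobic stretches of other proteins and help them to fold, stay soluble or be degraded. HSP70 proteins do so in a cycle of ATP hydrolysis that J-domain proteins start and nucleotide exchange factors end, and they hand many clients to HSP90, while small heat shock proteins hold unfolded proteins without ATP. When unfolded proteins accumulate, heat shock factor 1 (HSF1) binds heat shock elements, which are inverted repeats of the unit GAA, and raises transcription of the inducible members. Transcripts of heat shock proteins are known to rise in rodent brain during extended wakefulness.

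The promoters of the members are shown because such elements are the best known route by which these genes respond together. Each window holds 250 bases before and 50 bases after the transcription start (RefSeq, build GRCm38.p6), 5′ to 3′ on the gene's strand, and capitals mark every heat shock element of 2 units, GAANNTTC or TTCNNGAA. Both forms read the same on the other strand, and neighbouring matches may overlap. Only exact matches were sought, so elements with imperfect units are neither marked nor counted. The windows are chr17:34959189-34959488 (minus strand) for Hspa1b, chr17:34972107-34972406 (minus) for Hspa1a, chr5:135887669-135887968 (plus) for Hspb1, chr9:18292017-18292316 (plus) for Chordc1 and chr5:149636287-149636586 (minus) for Hsph1.
Hspa1b: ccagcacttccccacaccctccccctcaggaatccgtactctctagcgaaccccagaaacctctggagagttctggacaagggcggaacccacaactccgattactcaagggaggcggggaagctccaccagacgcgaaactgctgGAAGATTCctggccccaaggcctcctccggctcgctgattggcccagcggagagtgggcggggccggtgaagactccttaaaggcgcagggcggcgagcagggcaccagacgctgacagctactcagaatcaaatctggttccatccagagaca
Hspa1a: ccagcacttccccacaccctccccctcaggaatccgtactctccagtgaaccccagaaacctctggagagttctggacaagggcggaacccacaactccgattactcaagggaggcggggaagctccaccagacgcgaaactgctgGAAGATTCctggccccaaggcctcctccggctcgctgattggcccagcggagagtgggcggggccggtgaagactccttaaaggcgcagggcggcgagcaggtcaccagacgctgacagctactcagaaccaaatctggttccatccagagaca
Hspb1: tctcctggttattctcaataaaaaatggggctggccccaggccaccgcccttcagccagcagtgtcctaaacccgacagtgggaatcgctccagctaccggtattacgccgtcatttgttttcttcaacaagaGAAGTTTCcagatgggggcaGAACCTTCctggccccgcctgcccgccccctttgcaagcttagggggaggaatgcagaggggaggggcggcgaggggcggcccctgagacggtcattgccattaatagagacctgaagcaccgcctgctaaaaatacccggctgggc
Chordc1: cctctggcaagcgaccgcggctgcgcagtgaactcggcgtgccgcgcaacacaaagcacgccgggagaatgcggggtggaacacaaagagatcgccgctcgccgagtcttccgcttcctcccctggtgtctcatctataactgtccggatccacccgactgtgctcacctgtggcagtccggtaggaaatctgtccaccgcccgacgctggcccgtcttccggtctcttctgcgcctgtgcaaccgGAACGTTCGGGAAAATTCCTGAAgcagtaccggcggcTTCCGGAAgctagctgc
Hsph1: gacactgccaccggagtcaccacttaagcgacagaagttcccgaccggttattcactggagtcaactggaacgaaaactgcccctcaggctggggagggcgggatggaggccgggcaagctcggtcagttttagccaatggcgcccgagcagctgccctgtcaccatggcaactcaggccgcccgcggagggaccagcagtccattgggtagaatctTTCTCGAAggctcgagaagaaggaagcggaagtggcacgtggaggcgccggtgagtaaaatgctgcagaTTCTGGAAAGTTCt

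The 2 inducible HSP70 promoters shared 296 of 300 bases (98.7%), and each held 1 element, which began at position -104 from the start. Hspb1 held 2 elements, which began at -117 and -97. In Chordc1, 4 elements that began at -4, 2, 7 and 12 overlapped in 1 run across the start, and another began at 34. Elements of 3 units (GAANNTTCNNGAA, or TTCNNGAANNTTC on the other strand) were found in Chordc1 (3 overlapping matches) and Hsph1 (1 match). Of all 32851 mouse promoter windows of this length, 15.1% held an element of 2 units and 0.603% held one of 3 units. Bag3 had 1 element of 2 units at position 43, and neither of the 2 Dnajb1 start sites had one in its window. Hspa8, Hsp90aa1 and Cryab were not matched in the promoter table.

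Sleep deprivation went with higher Hspa1b in both genotypes. Hspa1b, an inducible HSP70, was 2.58-fold higher after deprivation in CnB1KO and 2.36-fold higher in WT by counts. Its near-identical copy Hspa1a, the small heat shock protein gene Hspb1, the J-domain gene Dnajb1 and the HSP90 cochaperone gene Chordc1 each passed in 1 genotype by counts and in the average of both. The fitted log2 fold change was above 0 for all 10 members in both genotypes by counts. The same held by FPKM (fragments per kilobase of transcript, scaled by the authors to the library). Some of these values were near 0, such as Chordc1 by FPKM (0.01 ± 0.06, SE) and Hspa8 by counts (0.01 ± 0.12) in CnB1KO. Both of these fell below 0 in some alternative fits. The most abundant members by FPKM, Hspa8 and Hsp90aa1, were about 1.2-fold higher by FPKM and passed in the average on that scale, while by counts their log2 differences in the average were 0.02 and 0.03 and did not pass.

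By edgeR's quasi-likelihood test of the counts, 3 of the 10 members passed in the deprivation comparison of CnB1KO (Hspa1b, Hspb1 and Dnajb1) and 3 in that of WT (Hspa1a, Hspa1b and Chordc1), all of them higher. Over all 14443 genes 0.692% passed in CnB1KO and 1.14% in WT, of which 0.464% and 0.775% were higher. By limma on FPKM, 4 members were higher in CnB1KO (Hspa1a, Hspa1b, Hspb1 and Dnajb1) and 2 in WT (Hspa1a and Hspa1b), where 0.34% and 0.29% of 19686 genes passed, 0.244% and 0.213% of them higher. Averaged over both genotypes, 6 members passed by counts (Hsph1 and the 5 named above) and 7 by FPKM (Hspa1a, Hspa1b, Hspa8, Hspb1, Dnajb1, Hsph1 and Hsp90aa1). In that average 4.69% of genes passed by counts (2.57% higher) and 1.94% by FPKM (1.14% higher). The median log2 fold change of the members by counts was 0.22 in CnB1KO and 0.23 in WT, beside -0.01 and 0.00 over all genes.

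**Figure D1:**
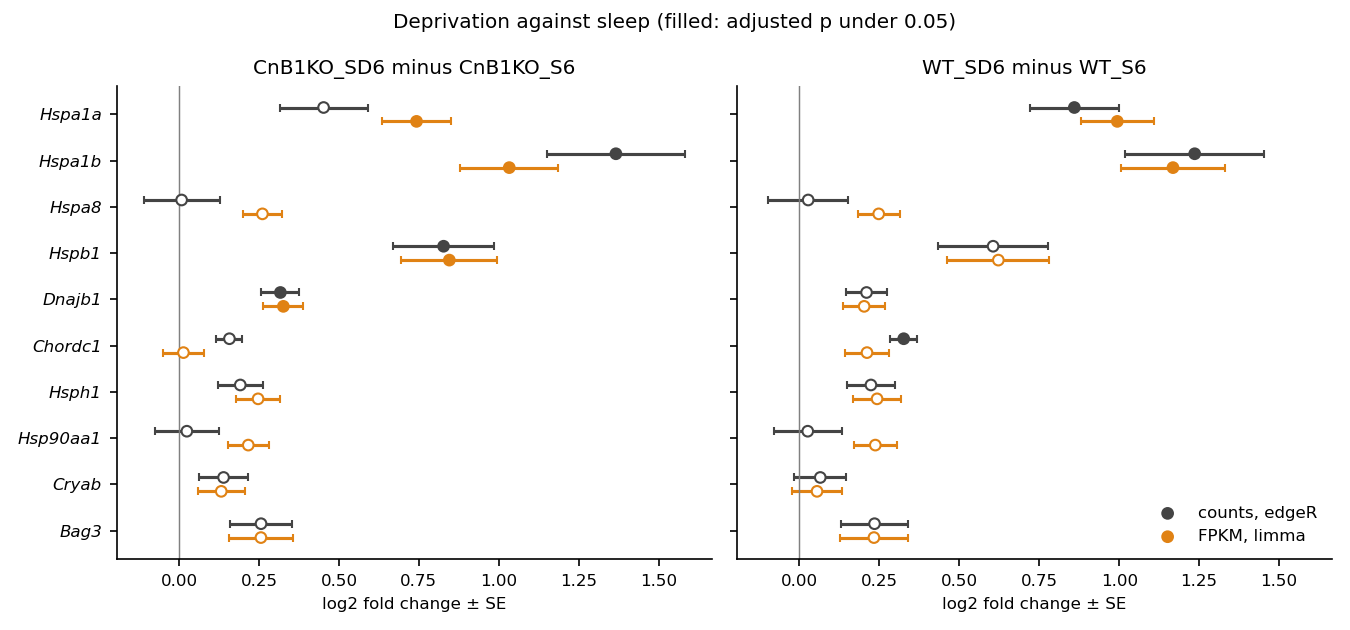
Log2 fold change (x axis, with its standard error) of the 10 chaperone genes after sleep deprivation against sleep, in CnB1KO (left) and WT (right); grey points are the edgeR fit of counts, orange points the limma fit of log2(FPKM + 0.1), and filled points have an adjusted p under 0.05 over all genes. Hspa1a, Hspa1b and Hspb1 lie farthest to the right in both genotypes, and Hspa8 and Hsp90aa1 lie near 0 by counts and above 0.2 by FPKM.

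Hspa1b encodes an HSP70 that is scarce in unstressed cells and is strongly induced by heat. Its FPKM were 10.9, 8.91, 6.903, 6.07 and 5.61 in CnB1KO_SD6 (libraries 16 to 20), against 3.88, 3.51, 2.84, 4.17 and 3.67 in CnB1KO_S6 (libraries 11 to 15). In controls they were 9.06, 11, 8.25, 8.995 and 9.03 in WT_SD6 (libraries 6 to 10), against 4.04, 3.62, 3.93 and 4.67 in WT_S6 (libraries 1 to 4). Every deprived library was above every library of slept mice, and the 5 CnB1KO_SD6 libraries were spread more widely than the 5 of WT_SD6. The counts behind these levels were 87, 68, 55, 35 and 30 in CnB1KO_SD6 and 24, 26, 11, 27 and 17 in CnB1KO_S6. In controls the counts were 71, 89, 55, 59 and 80 in WT_SD6 and 27, 25, 32 and 32 in WT_S6. The difference was larger than the spread between libraries in both genotypes. By counts the log2 fold change was 1.37 ± 0.21 (SE) in CnB1KO (adjusted p = 0.00277) and 1.24 ± 0.22 in WT (adjusted p = 0.00709). By FPKM it was 2.05-fold in CnB1KO (adjusted p = 0.00305) and 2.25-fold in WT (adjusted p = 0.00241).

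Hspa1a, the other inducible HSP70, lies next to Hspa1b on chromosome 17 (34969190 to 34972156 and 34956436 to 34959238, both on the minus strand, GRCm38, as are all positions here). The FPKM of Hspa1a were 10.1, 8.93, 7.68, 6.81 and 6.25 in CnB1KO_SD6, against 4.98, 4.33, 4.45, 4.71 and 4.77 in CnB1KO_S6. They were 9.62, 11.1, 9.07, 9.65 and 10.1 in WT_SD6, against 5.35, 4.91, 4.39 and 5.08 in WT_S6. As with Hspa1b, no deprived library overlapped those of slept mice of its genotype, and libraries 16 and 17 were the 2 highest of CnB1KO_SD6 for both genes. The FPKM fold was 1.67 in CnB1KO (adjusted p = 0.00305) and 1.99 in WT (adjusted p = 0.000600). By counts Hspa1a was 1.81-fold higher in WT (log2 0.86 ± 0.14, adjusted p = 0.00394), while the 1.37-fold difference in CnB1KO did not pass (log2 0.45 ± 0.14, adjusted p = 0.252). The counts were low, with 23 to 45 in CnB1KO_SD6, 13 to 30 in CnB1KO_S6, 40 to 59 in WT_SD6 and 23 to 33 in WT_S6.

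The WT calls of both genes depended on the model in few fits. Hspa1b passed in WT in 51 of 52 alternative fits and Hspa1a in 50 of 52, most of which left out 1 library. The fits that failed are given here. Oligodendrocyte markers moved with deprivation in WT, where the mean log2 CPM of 10 markers was 6.82 to 7.07 in WT_SD6 and 7.13 to 7.33 in WT_S6, without overlap. With this level as a covariate, the log2 difference in WT was 0.71 for Hspa1b (adjusted p = 0.216) and 0.81 for Hspa1a (adjusted p = 0.0869). As the WT groups do not overlap in it, this fit cannot fully separate marker level from deprivation there. In CnB1KO, where the marker level was 6.96 to 7.30 in CnB1KO_SD6 and 7.10 to 7.64 in CnB1KO_S6, the difference of Hspa1b was 1.14 (adjusted p = 0.00395). With the 9 WT libraries fitted alone, Hspa1b passed in WT (adjusted p = 0.0183) and Hspa1a did not (adjusted p = 0.0683).

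The 2 inducible HSP70 genes cannot be fully separated by their reads. Of all stretches of 50 bases in the Hspa1b transcript, 62.3% also occur in the Hspa1a transcript, and of all stretches of 100 bases 49.9% do. CPM per kilobase of exon came to 0.254 of the FPKM for Hspa1a and 0.392 for Hspa1b, against a median of 0.768 over 14101 genes. Exons of Hspa1a also overlap Gm20481 on the other strand, and the library kit does not mark strand. The sum of both genes does not depend on how the counted reads are divided between them. Their summed FPKM averaged 15.6 ± 3.74 in CnB1KO_SD6 and 8.26 ± 0.690 in CnB1KO_S6 (SD, n = 5 each). In controls the sum averaged 19.2 ± 1.78 in WT_SD6 (n = 5) and 8.997 ± 0.685 in WT_S6 (n = 4). By counts the sum was 1.93-fold higher after deprivation in CnB1KO (adjusted p = 0.00274) and 2.10-fold higher in WT (adjusted p = 0.00148).

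Hspa8 (chromosome 9, 40800984 to 40810087, plus strand) encodes the constitutive HSP70 of the cytosol, and was the most abundant member. Its FPKM were 311, 323, 357, 315 and 317 in CnB1KO_SD6, against 275, 251, 266, 272 and 292 in CnB1KO_S6. They were 323, 302, 272, 305 and 352 in WT_SD6, against 274, 270.1, 248 and 252 in WT_S6. The groups did not overlap in CnB1KO, and in WT 1 deprived library (library 8) fell within the range of slept mice. The FPKM fold was 1.20 in CnB1KO (adjusted p = 0.0970) and 1.19 in WT (adjusted p = 0.133), and the average over genotypes passed (1.19-fold, adjusted p = 0.00417). By counts the log2 fold change was 0.01 ± 0.12 in CnB1KO and 0.03 ± 0.13 in WT. Relative to Hspa8, the summed inducible HSP70 came to 4.83% ± 1.26 in CnB1KO_SD6 and 3.05% ± 0.225 in CnB1KO_S6 (SD of FPKM ratios, n = 5 each). In controls this share was 6.2% ± 0.712 in WT_SD6 and 3.45% ± 0.298 in WT_S6. The share was higher in every deprived library than in every library of slept mice of its genotype.

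The counts of Hspa8 hardly followed depth. They lay between 795 and 987 in all 19 libraries, while library totals lay between 3887298 and 7903253. Within groups a doubling of the total went with a rise of 0.24 in log2 count for Hspa8 and 0.38 for Hsp90aa1, against a median of 1.15 over 14101 genes. CPM per kilobase of exon were 0.115 of the FPKM for Hspa8 and 0.256 for Hsp90aa1. Dnajb1 and Chordc1, at 1.05 and 1.11, followed depth about in proportion. For Hspa8 and Hsp90aa1 the level differences therefore rest on FPKM, and their count tests are given beside them. Hsph1 and Cryab, at 0.72 each, followed depth less than in proportion, so their counts may share this limit in part. In library 13, the shallowest, Hsph1 had 277 CPM, against 204 to 233 CPM in the other libraries of CnB1KO_S6. Cryab had 78.3 CPM there, against 55.3 to 66.4 CPM. By FPKM both genes were also highest in library 13 within that group. Hsph1 had 62.6 FPKM, against 49.6 to 54.5 FPKM, and Cryab had 72.03 FPKM, against 54.4 to 64.3 FPKM. Their high values in library 13 are thus not particular to the count scale, and the cause was not tested.

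**Figure D2:**
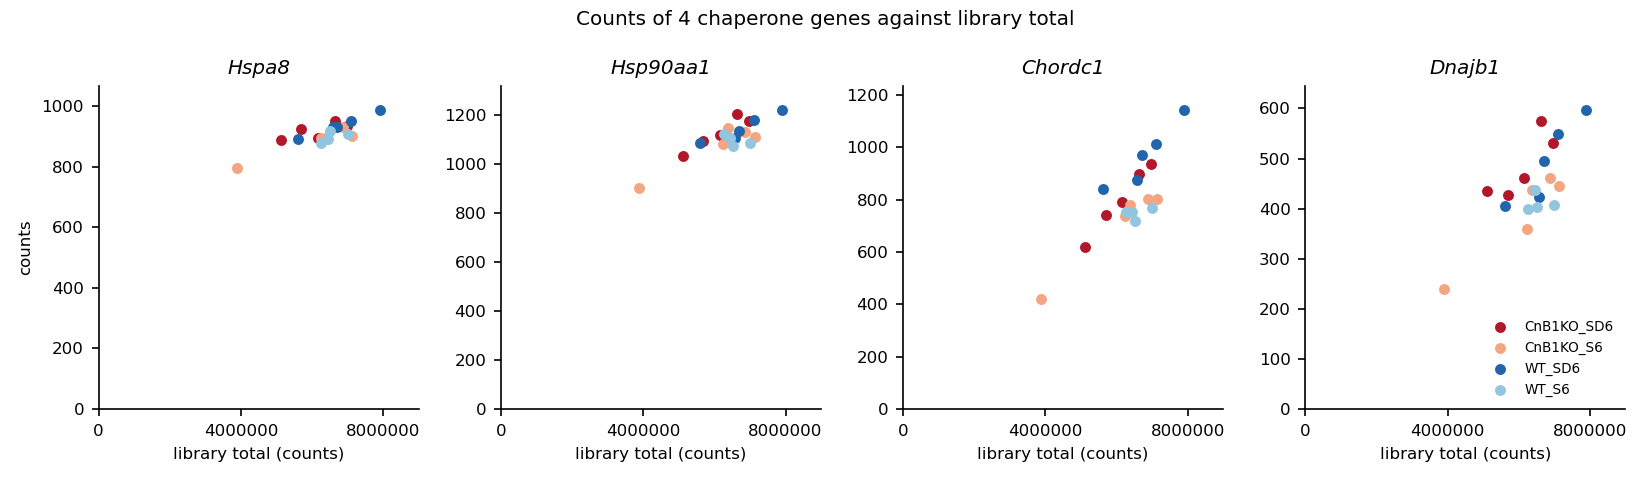
Counts (y axis) of Hspa8, Hsp90aa1, Chordc1 and Dnajb1 against the total counts of each library (x axis, in counts), 1 point per library coloured by group. Hspa8 stays between 795 and 987 counts across all totals, while Chordc1 and Dnajb1 rise with the total.

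Dnajb1 (chromosome 8, 83608193 to 83612653, plus strand) encodes the J-domain protein (HSP40) that delivers clients to HSP70 and starts its ATP hydrolysis. Its FPKM were 21.9, 21.97, 24.5, 21.7 and 25.02 in CnB1KO_SD6, against 19.3, 16.6, 18.2, 17.9 and 19.6 in CnB1KO_S6. They were 21.3, 22.4, 18.7, 21.1 and 21.5 in WT_SD6, against 18.4, 19.6, 16.8 and 18.1 in WT_S6. In CnB1KO all deprived libraries were above all others, and in WT library 8 of WT_SD6 lay among those of slept mice. Dnajb1 was 1.25-fold higher after deprivation in CnB1KO (log2 0.32 ± 0.06, adjusted p = 0.0127), and by FPKM also 1.25-fold (adjusted p = 0.0239). Without library 18 of CnB1KO_SD6 the adjusted p in CnB1KO was 0.0528 by counts and 0.0837 by FPKM. In WT the fold was 1.16 (adjusted p = 0.130), and in the average of both genotypes it was 1.20 (adjusted p = 0.00118).

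Hsph1 (chromosome 5, 149614287 to 149636376, minus strand) encodes HSP110, a nucleotide exchange factor that releases clients from HSP70. Its FPKM ranged 60 to 69.1 in CnB1KO_SD6 and 49.6 to 62.6 in CnB1KO_S6, and 53.3 to 65.6 in WT_SD6 and 45.3 to 54.8 in WT_S6. The ranges overlapped in both genotypes, and Hsph1 passed in neither (counts: log2 0.19 ± 0.07, adjusted p = 0.307 in CnB1KO; 0.22 ± 0.07, adjusted p = 0.187 in WT). In the average over genotypes it was 1.15-fold higher by counts (adjusted p = 0.0246) and 1.19-fold by FPKM (adjusted p = 0.0145). Without library 3 of WT_S6 the count value had an adjusted p of 0.0571.

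Bag3 (chromosome 7, 128523616 to 128546981, plus strand) encodes a cochaperone that links HSP70 to small heat shock proteins and to autophagy. Its FPKM were 22.2, 23.3, 23.96, 24.7 and 18.8 in CnB1KO_SD6, against 17.9, 18.7, 19.2, 18.02 and 20.4 in CnB1KO_S6. They were 20.2, 19.03, 17.7, 17.3 and 23.5 in WT_SD6, against 17.96, 20.3, 14.5 and 14.1 in WT_S6. In each genotype at least 1 deprived library lay within the range of slept mice. The fold by counts was 1.19 in CnB1KO (adjusted p = 0.344), 1.18 in WT (adjusted p = 0.384) and 1.19 in the average (adjusted p = 0.0576).

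Hsp90aa1 (chromosome 12, 110690605 to 110702728, minus strand) encodes the stress-inducible cytosolic HSP90. Its FPKM averaged 192 ± 13.1 in CnB1KO_SD6 and 165 ± 8.15 in CnB1KO_S6 (SD, n = 5 each). In controls it averaged 185 ± 16.3 in WT_SD6 (n = 5) and 157 ± 12.7 in WT_S6 (n = 4). The CnB1KO ranges did not overlap (181 to 214 against 155 to 177), and the WT ranges did (164 to 209 against 144 to 170.2). By FPKM the fold was 1.16 in CnB1KO (adjusted p = 0.227), 1.18 in WT (adjusted p = 0.188) and 1.17 in the average, which passed (adjusted p = 0.0138). By counts all 3 log2 values lay between 0.02 and 0.03. Of 10 members, 6 had FPKM ranges that did not overlap in the CnB1KO deprivation comparison (Hspa1a, Hspa1b, Hspa8, Hspb1, Dnajb1 and Hsp90aa1) and 2 in that of WT (Hspa1a and Hspa1b). Over all 19686 genes 1.16% were higher without overlap in CnB1KO and 2.25% in WT. On the CPM scale 5 members were separated in CnB1KO (Hspa1a, Hspa1b, Hspb1, Dnajb1 and Chordc1) and 3 in WT (Hspa1a, Hspa1b and Chordc1), beside 1.38% and 3.11% of 14443 genes.

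Chordc1 (chromosome 9, 18292125 to 18317442, plus strand) encodes a zinc-binding cochaperone of HSP90. Its CPM were 129, 134, 130.3, 131 and 123 in CnB1KO_SD6, against 116, 118, 115, 111 and 122 in CnB1KO_S6. They were 143, 143, 134, 153 and 141 in WT_SD6, against 119, 116, 109.7 and 111 in WT_S6. Deprived libraries were above those of slept mice in both genotypes on this scale. The fold by counts was 1.12 in CnB1KO (log2 0.16 ± 0.04, adjusted p = 0.0877) and 1.25 in WT (log2 0.33 ± 0.04, adjusted p = 0.000823). The FPKM did not show the same difference in CnB1KO. They averaged 27.3 ± 1.97 in CnB1KO_SD6 and 27.01 ± 1.51 in CnB1KO_S6, with a fold of 1.01 (adjusted p = 0.995). In controls they averaged 32.04 ± 2.53 in WT_SD6 and 27.6 ± 1.97 in WT_S6, with a fold of 1.16 (adjusted p = 0.269). Library 8 of WT_SD6, at 27.6 FPKM, was the 1 deprived control library within the range of slept mice.

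Hspb1 (chromosome 5, 135887919 to 135889563, plus strand) encodes HSP27, a small heat shock protein of glia, vessels and stressed neurons. Its FPKM were 19.6, 25.5, 24.1, 18.2 and 14.5 in CnB1KO_SD6, against 10.2, 10.7, 12.2, 11.3 and 11.05 in CnB1KO_S6. They were 14.4, 17.3, 14.1, 11.8 and 14.8 in WT_SD6, against 9.39, 13.1, 7.55 and 8.09 in WT_S6. In CnB1KO all deprived libraries were above all others, and in WT library 2 of WT_S6 exceeded library 9 of WT_SD6. The fold by counts was 1.77 in CnB1KO (log2 0.83 ± 0.16, adjusted p = 0.0147) and 1.52 in WT (log2 0.61 ± 0.17, adjusted p = 0.106). By FPKM it was 1.80 in CnB1KO (adjusted p = 0.0132) and 1.54 in WT (adjusted p = 0.117). Some of these calls turn on 1 library. In CnB1KO the adjusted p by counts was 0.0602 without library 11 of CnB1KO_S6 and 0.0573 without library 18 of CnB1KO_SD6, and in WT it was 0.0401 by FPKM without library 2 of WT_S6. The average over genotypes was 1.64-fold (adjusted p = 0.00112).

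Cryab (chromosome 9, 50751325 to 50756636, plus strand) encodes alpha-B crystallin, a small heat shock protein that is abundant in oligodendrocytes. Its FPKM were 60.9, 68.1, 73.4, 71.5 and 68.1 in CnB1KO_SD6, against 57.8, 64.3, 72.03, 54.4 and 64.3 in CnB1KO_S6. They were 60.7, 52.9, 63.3, 55.8 and 53.4 in WT_SD6, against 55.7, 60.1, 53.6 and 50.8 in WT_S6. The groups overlapped widely in both deprivation comparisons, and by counts the fold was 1.10 in CnB1KO (adjusted p = 0.620) and 1.05 in WT (adjusted p = 0.860). The exons of Cryab overlap those of Hspb2 on the other strand, so its values are uncertain to that extent. Of 10 oligodendrocyte markers, 1 fell after deprivation in CnB1KO and 2 in WT. Their summed level was 1860 to 2281 CPM in CnB1KO_SD6, 1812 to 2840 in CnB1KO_S6, 1715 to 1926 in WT_SD6 and 1858 to 2094 in WT_S6, and none was at 0 in any library. With the oligodendrocyte markers' mean log2 level as a covariate, Cryab was higher after deprivation by log2 0.25 in CnB1KO (adjusted p = 0.00634) and 0.32 in WT (adjusted p = 0.0227). Of 53 alternative fits, only this 1 had Cryab passing in these comparisons. The highest adjusted p among them was 0.884 in CnB1KO and 0.992 in WT. In WT the marker level did not overlap between deprived and slept mice, so the covariate fit cannot fully separate marker level from deprivation.

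In level per length the members formed a wide scale. In WT_S6 they ran, in FPKM, from Hspa8 (261) and Hsp90aa1 (157) over Cryab (55.0), Hsph1 (51.6), Chordc1 (27.6), Dnajb1 (18.2), Bag3 (16.7) and Hspb1 (9.52) down to Hspa1a (4.93) and Hspa1b (4.07). Cryab and Hsph1, and Dnajb1 and Bag3, did not differ beyond their spread there, as their ranges overlapped. The other neighbours, apart from Hspa1a and Hspa1b, had ranges that did not overlap. After deprivation the 2 inducible HSP70 genes were still the lowest, at 7.95 ± 1.56 and 7.67 ± 2.19 FPKM in CnB1KO_SD6 and 9.92 ± 0.768 and 9.27 ± 1.03 FPKM in WT_SD6 (SD, n = 5 each).

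**Figure D3:**
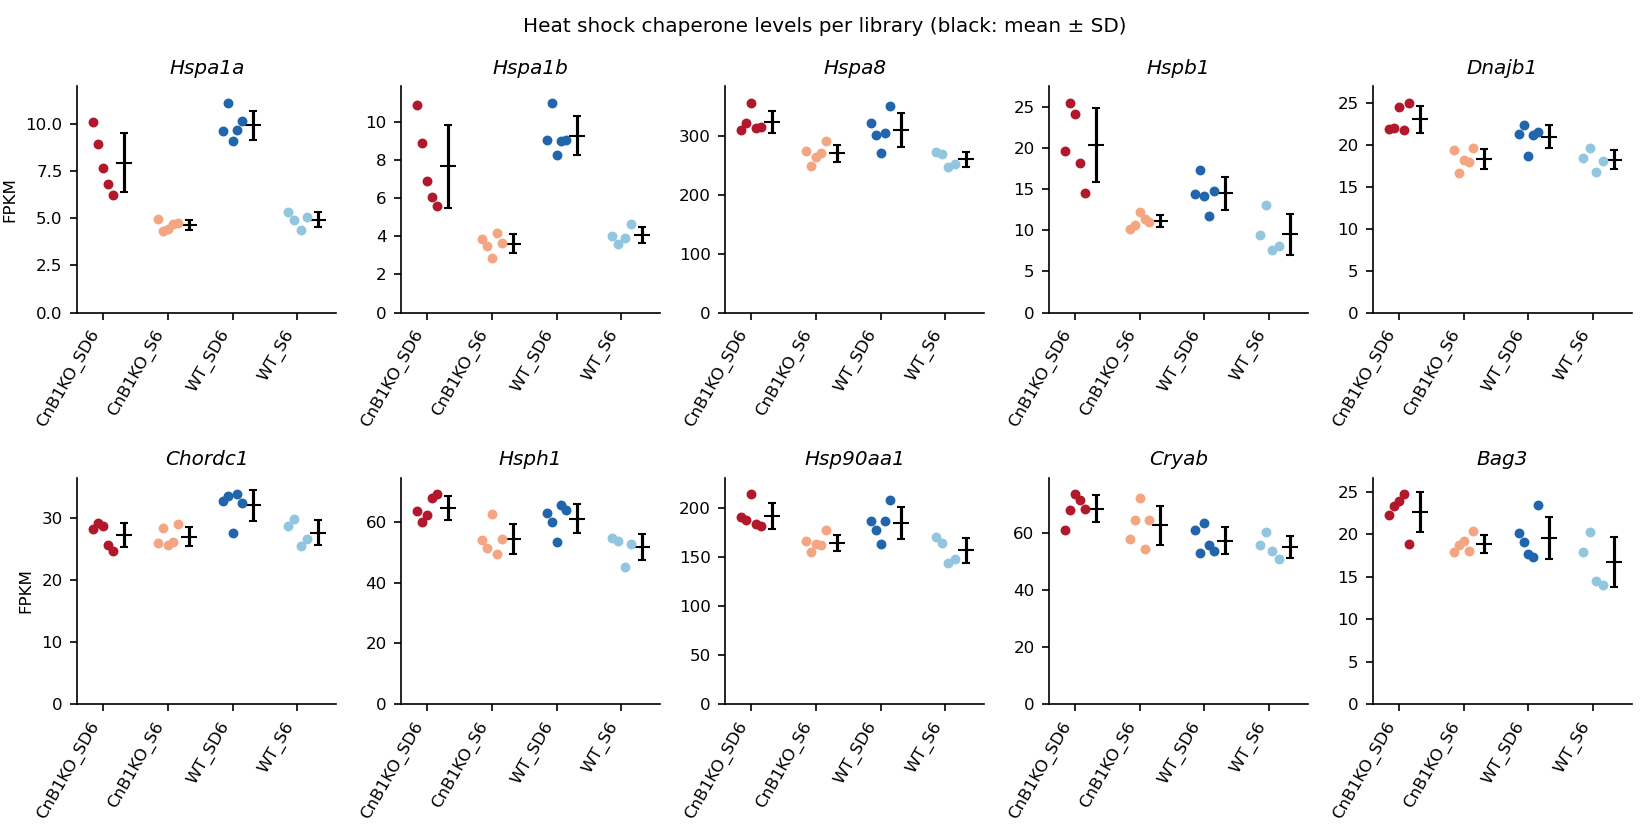
FPKM (y axis, from 0) of the 10 chaperone genes in each of the 19 libraries by group (x axis); points are libraries and black bars the mean ± SD of the group. Hspa1a and Hspa1b are separated between deprived and slept mice in both genotypes, and Hspa8, Hspb1, Dnajb1 and Hsp90aa1 in CnB1KO.

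Between the genotypes, none of the 10 members passed after deprivation and none after sleep, by edgeR or by limma. Over all genes 0.132% passed after deprivation and 0.0485% after sleep by counts, and 0.0406% in both by FPKM. At an unadjusted p under 0.05, 6 of the 10 members differed after deprivation and 1 after sleep by counts, against 15.2% and 10.1% of all genes. By FPKM they were 5 and 1, against 12.2% and 8.49% of all genes. The share of members after sleep was thus near that of all genes. No member had groups that did not overlap. Over all genes, 2.05% were so separated after deprivation and 4.32% after sleep on the CPM scale, and 1.72% and 3.62% on the FPKM scale.

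After deprivation, the mean levels of the inducible HSP70 genes were lower in CnB1KO_SD6 than in WT_SD6, without passing the test. Hspa1a averaged 7.95 ± 1.56 FPKM in CnB1KO_SD6 and 9.92 ± 0.768 FPKM in WT_SD6, a log2 difference of -0.33 by FPKM (adjusted p = 0.252) and -0.45 ± 0.13 by counts (adjusted p = 0.157). For Hspa1b the log2 difference was -0.31 by FPKM (adjusted p = 0.428) and -0.23 ± 0.19 by counts (adjusted p = 0.557). The summed counts of both differed by -0.32 (adjusted p = 0.291). Chordc1 averaged 27.3 ± 1.97 FPKM in CnB1KO_SD6 and 32.04 ± 2.53 FPKM in WT_SD6, a log2 difference of -0.14 ± 0.04 by counts (adjusted p = 0.158). Hspb1, by contrast, averaged 20.4 ± 4.48 FPKM in CnB1KO_SD6 and 14.5 ± 1.98 FPKM in WT_SD6, a log2 difference of 0.42 ± 0.15 by counts (adjusted p = 0.231). The log2 differences of the other 6 members by counts lay between 0.08 and 0.27 after deprivation. After sleep those of all 10 members lay between -0.36 (Hspa1b) and 0.20 (Hspb1 and Cryab), with adjusted p from 0.431 to 0.960. None of these differences passed after adjustment over all genes. Before adjustment, the lowest p by edgeR after deprivation were those of Cryab (0.00218), Hspa1a (0.00227) and Chordc1 (0.00266).

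**Figure D4:**
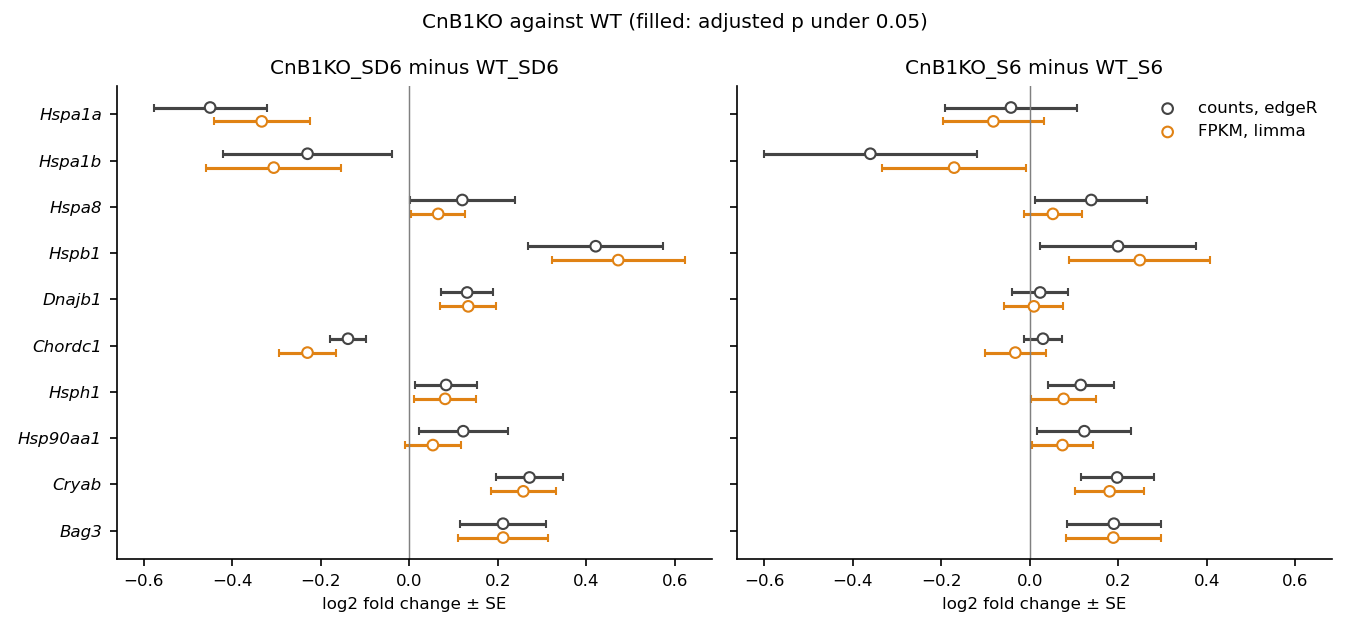
Log2 fold change (x axis, with its standard error) of the 10 chaperone genes in CnB1KO against WT, after deprivation (left) and after sleep (right), for counts (grey) and FPKM (orange). All points are open, since none had an adjusted p under 0.05; Hspa1a, Hspa1b and Chordc1 lie left of 0 after deprivation and Hspb1 and Cryab right of it.

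Cryab was the 1 member that passed in the average of both genotype comparisons, in which 3.09% of genes passed by counts and 0.63% by FPKM. It was 1.18-fold higher in CnB1KO by counts (log2 0.23 ± 0.06, adjusted p = 0.0317) and 1.16-fold by FPKM (adjusted p = 0.0588). Taken singly, the fold was 1.21 after deprivation (adjusted p = 0.157) and 1.15 after sleep (adjusted p = 0.431). The averaged call held in 10 of 19 fits that left out 1 library, with adjusted p from 0.0147 to 0.0899, the highest without library 4 of WT_S6. Markers of other cells moved with it. Of 10 oligodendrocyte markers, 2 were higher in CnB1KO in the same average, with a median log2 difference of 0.17, and so were 5 of 8 endothelial and 3 of 7 pericyte and smooth muscle markers. The summed endothelial markers came to 485 to 626 CPM in CnB1KO_SD6, 517 to 625 in CnB1KO_S6, 405 to 511 in WT_SD6 and 410 to 474 in WT_S6, with none at 0. Markers of cerebellar granule cells were lower in CnB1KO in that average (median log2 difference -0.61), with 0 of 8 passing. Their summed level varied widely within groups, for example from 280 to 1217 CPM in CnB1KO_SD6 and from 351 to 1690.5 CPM in WT_SD6. With the oligodendrocyte level as a covariate the Cryab difference was 0.09 (adjusted p = 0.557), and with the endothelial level 0.20 (adjusted p = 0.337).

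**Figure D5:**
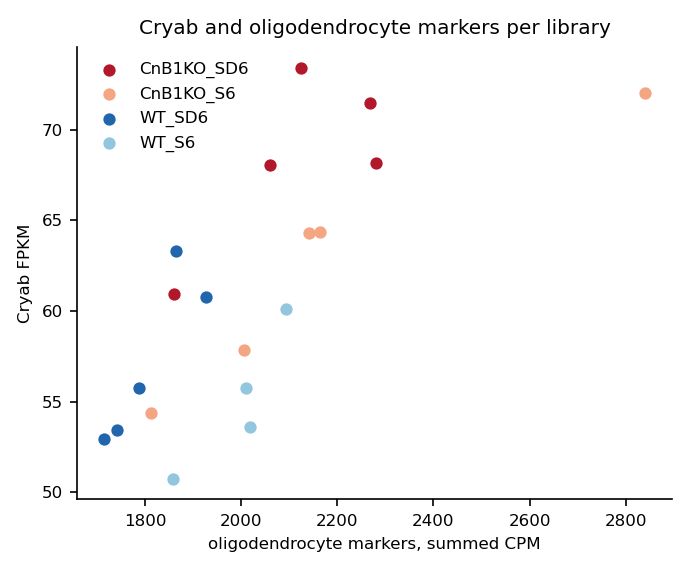
FPKM of Cryab (y axis, not from 0) against the summed CPM of 10 oligodendrocyte markers (x axis, not from 0), 1 point per library coloured by group. Library 13 of CnB1KO_S6 has the highest marker sum (2840 CPM) and 72.0 FPKM of Cryab, and the CnB1KO_SD6 libraries lie at 60.9 to 73.4 FPKM, against 52.9 to 63.3 in WT_SD6.

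Whether deprivation acted differently in the 2 genotypes was tested as an interaction. No member passed, and no gene of 14443 did by edgeR or of 19686 by limma; at an unadjusted p under 0.05 there were 287 genes by counts. Of the members, only Chordc1 was among these by counts, with an interaction of -0.17 ± 0.06 on the log2 scale, and its adjusted p was 0.999945. The interaction was -0.41 ± 0.20 for Hspa1a, 0.13 ± 0.30 for Hspa1b and 0.22 ± 0.23 for Hspb1, and -0.12 for the summed inducible HSP70. A gene that passed in 1 genotype alone is therefore not shown to differ between them.

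Few other genes of the folding machinery passed. The members and the lists below were drawn up with earlier results of these data known, so this contrast is a description and no test. In each deprivation comparison and each genotype comparison, no gene passed by counts among 7 other HSP70, HSP110 and HSP90 genes, 13 other J-domain genes, 3 other small heat shock genes and 21 cochaperones. The same held for 4 genes of heat shock transcription factors and their binding protein, 14 of the TRiC chaperonin and prefoldin, 7 mitochondrial chaperones and 7 other known HSF1 targets. In the deprivation average, Dnaja4, a J-domain gene, was 1.14-fold higher (adjusted p = 0.0433 by counts and 0.0400 by FPKM). Fkbp5, a glucocorticoid-induced HSP90 cochaperone, was 1.65-fold higher (adjusted p = 0.0157 by counts and 0.0412 by FPKM), with 56.4 to 86.8 CPM in CnB1KO_SD6 and 36.8 to 47.7 CPM in CnB1KO_S6, and 30.2 to 102 CPM in WT_SD6 and 33.9 to 48.9 CPM in WT_S6. Ahsa1, which stimulates the ATPase of HSP90, passed in that average by FPKM alone (1.12-fold, adjusted p = 0.0103; 0.0743 by counts) and is named after its values were seen. In the genotype average, the HSP70 exchange factor gene Bag1 was 1.12-fold higher in CnB1KO (adjusted p = 0.0299) and Bag4 was 1.14-fold lower (adjusted p = 0.0296). By FPKM, neither Bag gene passed (adjusted p = 0.0564 and 0.0532).

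The members did not vary as 1 block among libraries of a group. After subtraction of the group means from log2 FPKM in the 19 libraries, Pearson's r (Spearman's rho) was 0.94 (0.92) between Hspa8 and Hsp90aa1 and 0.87 (0.86) between Hspa1a and Hspa1b. It was -0.01 (0.07) between Hspa1b and Hspa8 and -0.73 (-0.71) between Hspa1b and Cryab. These values are descriptions, since the genes share libraries, depth and tissue composition, and Hspa1a and Hspa1b also share reads. Among 13116 genes outside the chaperone lists, with a mean log2 CPM of at least 1 and no provisional symbol, those close to Hspa1b in TMM-scaled log2 CPM, again after subtraction of the group means, included Gnb4 (r 0.86, rho 0.87), Synpo2 (0.84, 0.86), Per2 (0.80, 0.81) and Sox1 (0.79, 0.82). None of these 4 passed by counts in the deprivation comparison within either genotype.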

How the data were processed

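Poly(A) RNA of dissected locus coeruleus was sequenced without strand information, per the labels' protocols, in 19 libraries, and the labels speak of biological replicates. Per the submitters' processing notes, reads were handled with Trim Galore 0.6.10, FastQC 0.12.1, SAMtools 1.6, StringTie 2.2.1, HTSeq 2.0.4 and Picard 2.18.29 on the build GRCm38. Neither the aligner nor the annotation nor the treatment of duplicates is named in the sources used here. The authors deposited whole-number counts for 14443 gene symbols (at least 381 counts over all libraries) in 1 table. The authors deposited FPKM in 4 tables, 1 per group, with 62533, 62535, 59380 and 62551 lines for CnB1KO_S6, CnB1KO_SD6, WT_S6 and WT_SD6, so FPKM set across them assume the same processing. Columns name the group and a library number, and 0 columns of values went unused.

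Counts were tested with edgeR 4.0.16 after TMM scaling (R 4.3.3; quasi-likelihood F test, 2-sided) in 1 fit of the 4 groups without covariates. The filter filterByExpr kept all 14443 genes. FPKM were tested with limma 3.58.1 on log2(FPKM + 0.1), which understates the change of low genes, for 19686 symbols with 1 line per table and a mean of at least 0.5. The threshold was 0.05 for p adjusted by Benjamini and Hochberg's method across the whole table. The 7 comparisons were deprivation in each genotype, genotype after each sleep state, their interaction and both averages. SE of edgeR values are the log2 fold change divided by the square root of F. Unadjusted p-values weigh a difference against the spread between these libraries, and adjusted p also depends on the p of all genes tested. For Hspa1a, with its low counts, some edgeR p were larger than its SE imply. An example is the interaction, -0.41 ± 0.20 with an unadjusted p of 0.0869. Such p do not rest on that spread alone, and the SE of Hspa1a may be too small. Both fits were also run on simulated data, for deprivation in WT alone. The simulated counts followed library totals in proportion, unlike those of Hspa8 and Hsp90aa1, so these runs do not cover the count tests of those genes. The text names all 10 members and, of other chaperone lists, the genes that passed by counts. Of the genes most like Hspa1b and of the noradrenergic markers, 1 each is not reported here. Members and lists were chosen with earlier results of these data known. Positions are from GENCODE M21, and motif matches from RefSeq promoter windows. Alternatives were RLE factors, DESeq2 1.42.0, limma voom, other filters and pseudocounts, covariates for library total and marker levels, the compared libraries alone, summed Hspa1a and Hspa1b counts, and leaving out each library. Scaling FPKM by median ratio and leaving out libraries from the FPKM fit were added after seeing the data.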

Additional observations from a re-analysis of the deposited data

Results flagged for a closer look

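In 80 groups of values (10 genes, 4 groups, CPM and FPKM), 5 held 1 library far from the others by Dixon's criterion, and chance alone flags about 1 in 20. Hspa8 had 217 CPM in library 13 of CnB1KO_S6, against 124 to 143 CPM in the other libraries of that group. Hsp90aa1 had 246 CPM in the same library, against 153 to 179 CPM; this library has the lowest total, 3887298 counts, and on the FPKM scale neither gene stood apart in it. Hspa8 reached 357 FPKM in library 18 of CnB1KO_SD6, against 311 to 323 FPKM in the others. Chordc1 was lowest in library 8 of WT_SD6, with 27.6 FPKM against 32.5 to 33.8 FPKM. Hspa1a had 5.09 CPM in library 2 of WT_S6, against 3.63 to 3.86 CPM, from 33 counts against 23 to 26. The cause of these values was not tested.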

How the results depend on the processing

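No member changed direction under any alternative run in a comparison that it passed by counts. Hspa8 and Hsp90aa1 passed in the deprivation average by FPKM alone, and by counts their log2 values there fell below 0 without 1 library. For Hspa8 this was -0.012 without library 9, -0.0023 without library 11, -0.014 without library 14 and -0.012 without library 20, and for Hsp90aa1 -0.0038 without library 9 and -0.0035 without library 14. For deprivation in CnB1KO 3 to 4 members passed and in WT 2 to 4. Leaving out 1 library gave 1 to 3 in CnB1KO and 3 to 3 in WT by counts, and 2 to 5 and 2 to 3 by FPKM. The lowest count in CnB1KO, 1, was without library 18 of CnB1KO_SD6. In the deprivation average 5 to 8 passed. For the genotype comparisons and the interaction 0 passed in all runs. In the genotype average 1 member passed, 0 with the endothelial or the oligodendrocyte covariate and 0 under every FPKM setting; leaving out 1 library gave 0 to 2 by counts and 0 to 1 by FPKM. Hspa1a in WT did not pass when only the 9 WT libraries were fitted (adjusted p = 0.0683). Among 2989 values of members that did not pass by counts, 150 changed sign, the largest of size 0.27. The causes were not tested. No paired analysis was possible because the columns carry library numbers that run through the groups, not the replicate numbers of the titles. With 11 to 89 counts per library, Hspa1a and Hspa1b are limited by depth.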
